A study of Homo sapiens with 2 samples.

Results

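Distal accessible sites that were tall in both libraries were described in G401, a human cell line of renal rhabdoid origin that lacks the SWI/SNF subunit SMARCB1. ATAC-seq, which uses the Tn5 transposase to cut accessible DNA, was done on 1 library of cells given DMSO, the solvent, and 1 library of cells given MAK683 at 3 μM, each for 3 days. MAK683 is an inhibitor that binds EED, part of the Polycomb complex PRC2, and so prevents methylation of histone H3 lysine 27. The sites were chosen by height and position: peaks of both libraries that overlapped on chromosomes 1 to 22 were merged, and a merged region was kept if it reached 1.5 RPM in each library and lay more than 5 kb from each of 64449 gene starts (transcription start sites, TSSs, 1 per gene). RPM is the number of tags over the peak summit per 1000000 tags of the library. The rule kept 800 of 196615 merged regions, of which 56828 had a peak in each library. Each group was a single library, so differences could not be set against replicates and no test was run.

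Accessible sites far from promoters include enhancers, which bind transcription factors and act on genes at a distance, and sites of CTCF, the factor that anchors chromatin loops and marks domain borders. PRC2 deposits H3K27me3, a mark of repressed genes, and EED reads that mark and stimulates the enzyme. Not every tall distal signal is an enhancer: starts of secondary transcripts, genes of small RNAs and repeated DNA can give one too, and the members were sorted with this in mind.

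The 800 members fell into 3 classes that were defined by sequence and annotation after the data were seen, without use of the heights. In 90 members the DNA was repeated: fewer than 50% of the 31-base words within 100 bp of the DMSO summit occurred once in the genome, or the surrounding 1001 bp matched itself at 50% or more of its bases after a shift of 2 to 400 bp. Of the others, 256 lay within 5 kb of the start of another annotated transcript of some gene, although more than 5 kb from the single start that the rule gave each gene. The remaining 454 lay more than 5 kb from every annotated transcript start. The distance rule thus left many sites at secondary transcript starts among the members. Counting those in repeated DNA, 267 of the 800 members were within 5 kb of another transcript start and 170 had one inside the region.

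Windows reaching 100 bp to each side of the DMSO summit are printed for tall members of each kind, because they show what DNA lay under these peaks (GRCh37, plus strand, 5′ to 3′). In the first set, the capitals mark the motif letters that name the line.
CTCF, in a coding exon of ROBO3, chr11:124746225-124746425: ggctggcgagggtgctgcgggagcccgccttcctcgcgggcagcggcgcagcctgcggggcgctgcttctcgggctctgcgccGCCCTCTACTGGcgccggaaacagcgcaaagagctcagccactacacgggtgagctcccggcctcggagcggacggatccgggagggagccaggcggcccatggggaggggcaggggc
CTCF, in an intron of SEMA3F-AS1, chr3:50159080-50159280: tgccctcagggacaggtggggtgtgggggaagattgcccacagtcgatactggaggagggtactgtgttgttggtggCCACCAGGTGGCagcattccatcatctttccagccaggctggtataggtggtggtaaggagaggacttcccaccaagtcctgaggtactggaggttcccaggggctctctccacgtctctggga
AP-1, in an intron of PPP2R1B, chr11:111606580-111606780: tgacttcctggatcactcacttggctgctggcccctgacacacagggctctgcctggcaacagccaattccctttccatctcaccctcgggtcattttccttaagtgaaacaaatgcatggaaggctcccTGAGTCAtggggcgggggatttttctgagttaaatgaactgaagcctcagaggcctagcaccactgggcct
AP-1, nearest to EML4, chr2:42360174-42360374: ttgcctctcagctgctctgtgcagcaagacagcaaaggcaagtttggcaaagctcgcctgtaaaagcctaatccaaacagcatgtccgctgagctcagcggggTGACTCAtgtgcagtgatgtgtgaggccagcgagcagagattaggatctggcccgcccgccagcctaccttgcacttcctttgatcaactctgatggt
TEAD, nearest to NUFIP1, chr13:45492506-45492706: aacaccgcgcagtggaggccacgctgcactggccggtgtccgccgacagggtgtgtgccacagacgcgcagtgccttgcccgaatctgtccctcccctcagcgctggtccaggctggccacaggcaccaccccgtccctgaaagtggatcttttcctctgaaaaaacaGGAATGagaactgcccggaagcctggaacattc
SP/KLF, start of a TNFAIP8 transcript, chr5:118604233-118604433: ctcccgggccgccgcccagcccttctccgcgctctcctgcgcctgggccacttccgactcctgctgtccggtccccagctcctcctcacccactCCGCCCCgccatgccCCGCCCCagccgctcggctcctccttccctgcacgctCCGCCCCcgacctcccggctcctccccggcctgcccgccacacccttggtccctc
none of the 19 motifs, nearest to HAAO, chr2:43164419-43164619: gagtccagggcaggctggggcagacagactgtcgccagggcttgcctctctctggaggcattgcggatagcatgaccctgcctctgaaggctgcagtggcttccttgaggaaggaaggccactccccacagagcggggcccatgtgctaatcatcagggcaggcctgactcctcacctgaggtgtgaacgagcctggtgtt
The ROBO3 window holds the CTCF letters and the TNFAIP8 window the SP/KLF letters, at 3 places, on the minus strand, so the capitals there are the reverse complement.

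A second set shows members that held letters of a tRNA gene promoter or lay in repeated DNA. In the first pair, the capitals mark the A box and the B box, the internal promoter parts of transfer RNA (tRNA) genes. The other windows come from repeated DNA and have no capitals.
A and B box, nearest to ZNF692, chr1:249167962-249168162: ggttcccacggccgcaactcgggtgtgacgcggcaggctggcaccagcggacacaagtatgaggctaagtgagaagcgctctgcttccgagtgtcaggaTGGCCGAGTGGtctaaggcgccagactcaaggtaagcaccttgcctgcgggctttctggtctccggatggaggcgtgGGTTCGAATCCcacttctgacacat
A and B box, nearest to CTNNA3, chr10:69524158-69524358: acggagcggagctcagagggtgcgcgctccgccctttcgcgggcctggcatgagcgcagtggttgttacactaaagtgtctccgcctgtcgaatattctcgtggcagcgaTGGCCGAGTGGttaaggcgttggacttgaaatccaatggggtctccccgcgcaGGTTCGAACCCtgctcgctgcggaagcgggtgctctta
Tallest member, chr1:121484934-121485134: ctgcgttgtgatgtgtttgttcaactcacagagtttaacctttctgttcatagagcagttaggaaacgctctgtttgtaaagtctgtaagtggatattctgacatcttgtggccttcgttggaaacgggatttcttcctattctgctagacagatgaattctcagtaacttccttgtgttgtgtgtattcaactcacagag
Next tallest member, chr19:27732035-27732235: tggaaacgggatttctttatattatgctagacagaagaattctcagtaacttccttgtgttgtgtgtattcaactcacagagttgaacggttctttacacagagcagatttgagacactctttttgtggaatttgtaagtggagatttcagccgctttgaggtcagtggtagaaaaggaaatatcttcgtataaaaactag
Both windows from repeated DNA come from regions that touch a gap of the genome assembly.

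The tallest members lay in repeated DNA. They made up 10 of the 10 tallest, 20 of the 20 tallest and 21 of the 22 members whose heights averaged over 5 RPM. The tallest region, chr1:121481951-121485551, reached 21.1 RPM in DMSO (351 tags, 95% exact interval 19.0 to 23.5) and 19.3 RPM in MAK683 (353 tags, 17.4 to 21.5). The next, chr19:27731674-27739666, reached 14.6 and 13.5 RPM. Both lay between genes. The chromosome 1 window shared 54.2% of its bases with itself at a shift of 339 bp, and the chromosome 19 window 65.8% at 340 bp.

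The 8 other members of the 10 tallest were of the same kind. They were chr10:42528593-42533073 (11.4 RPM in DMSO and 10.6 in MAK683), chr7:61967205-61971991 (11.3 and 10.1), chr6:58776100-58780120 (9.58 and 8.27), chr2:92315639-92326259 (8.80 and 8.27), chr10:42397825-42400895 (9.04 and 7.39), chr10:42596640-42600680 (7.71 and 8.05), chr10:42383176-42395241 (6.69 and 7.66) and chr11:51579097-51581224 (7.71 and 6.35). All 10 held log2 ratios of MAK683 to DMSO between -0.29 and 0.20, and every one of their counting intervals included 0. Their best shifts were 26, 171 or 338 to 342 bp. Alpha satellite, the DNA of human centromeres, is built from units of about 171 bp in tandem, often paired into longer units.

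Across the 90 members in repeated DNA, 53 matched themselves at 50% or more of the bases. The best shift was 171 bp in 17 of these, 338 to 342 bp in 20 and 26 bp in 5. An assembly gap of at least 10 kb lay within 100 kb of 53 of the 90, against 9 of the other 710 members. The 31-base words of the summit window had a median of 3.5 copies in the genome. Of the 90, 14 were classed as repeated by the match with themselves alone. Among these were chr1:121481951-121485551 and chr19:27731674-27739666, where 88.9% and 59.1% of the words occurred once. Others were chr7:61967205-61971991 (74.3%) and chr11:51579097-51581224 (73.7%). The number of places from which reads were assigned to these regions is not given in the sources used here, and the part of copy number in their heights was not tested. None of the 800 summit windows matched the mitochondrial genome.

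**Figure D1:**
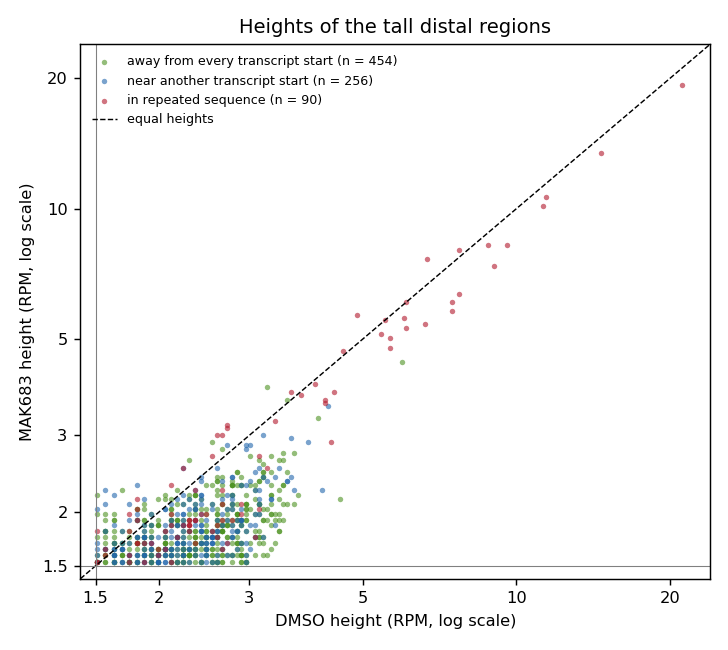
Height of each of the 800 tall distal regions in the DMSO library (x) and the MAK683 library (y), both in RPM on log scales; each point is a region, colour gives its class, grey lines mark 1.5 RPM and the dashed line marks equal heights. Points above 5 RPM in both libraries are in repeated sequence, the points of the other classes reach at most 4.43 RPM in MAK683, and most points lie under the dashed line.

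Outside repeated DNA the members covered a narrow range of heights. The 454 members away from every transcript start had a median of 2.35 RPM in DMSO (lowest 1.51, highest 5.96) and 1.75 RPM in MAK683 (1.53 to 4.43). The 256 near another start had medians of 2.29 (1.51 to 4.28) and 1.75 RPM (1.53 to 3.50). The 90 in repeated DNA had medians of 2.62 (1.51 to 21.1) and 2.03 RPM (1.53 to 19.3). Heights thus overlapped widely between the classes, and the repeated class differed mainly in its upper tail. Across regions, Spearman's rho between the DMSO and MAK683 heights was 0.87 over the 90 members in repeated DNA and 0.47 over the other 710, a description of points that share both libraries and the height minimum.

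The tallest member outside repeated DNA, chr17:41399697-41401317, stood at 5.96 RPM in DMSO (99 tags) and 4.43 RPM in MAK683 (81 tags), between genes and 35803 bp from the TSS of TMEM106A. It was the sole such member above 4 RPM in both libraries. In the intron of LOXL2, which encodes a lysyl oxidase that cross-links collagen, chr8:23210144-23212804 had 3.49 and 2.74 RPM and held AP-1 and TEAD letters. Between genes near CYP1A2, which encodes a cytochrome P450 enzyme, chr15:75051670-75053777 had 3.55 and 2.46 RPM. A region 141470 bp from the TSS of HAAO, chr2:43161193-43166001, had 3.55 RPM in DMSO and 3.61 in MAK683, and so was level between the libraries.

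Members near another transcript start were often at the start of another isoform. The tallest, chr5:118603499-118605478, contained a start of TNFAIP8 and had 4.28 RPM in DMSO and 3.50 in MAK683. A region inside ROBO3, which encodes an axon guidance receptor, had 3.92 and 2.90 RPM (chr11:124745188-124747488). The region chr7:104622862-104625922, in an intron of KMT2E and at a start of LINC01004, had 4.16 RPM in DMSO and 2.24 in MAK683, a log2 ratio of -0.89 with a counting interval of -1.45 to -0.33. Their sequence was richer in G and C, with a median GC content of 61.9% in the summit window against 55.2% in members away from starts and 42.0% in repeated DNA. Tall TSS-proximal regions, those within 5 kb of a gene's TSS and at least 1.5 RPM in each library, had 67.2%. The median number of CpG pairs in the window was 8 near another start, 4.5 away from starts, 4 in repeated DNA and 18 in tall TSS-proximal regions.

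The members were a minority of tall regions and lay outside exons for the most part. Of 6326 regions at or above 1.5 RPM in each library, 12.6% were distal (95% Wilson interval 11.8 to 13.5%). By the DMSO summit, 382 members lay between genes, 349 in an intron, 54 in a non-coding exon part and 15 in coding sequence. The intron share was 43.6% (40.2 to 47.1%), against 57.3% (56.7 to 57.8%) of the 27542 lower distal regions, which had a peak in both libraries but less than 1.5 RPM in at least 1. It was 60.5% (54.4 to 66.3%) near another start, 38.3% (34.0 to 42.9%) away from starts and 22.2% (14.9 to 31.8%) in repeated DNA. The median length was 2468 bp, against 2249 bp for tall TSS-proximal and 783 bp for lower distal regions, so the length was close to that of the other tall regions. The median distance to a protein-coding TSS was 41239 bp over all members, and 218 members were more than 100 kb from one.

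By chromosome, the share of tall regions that were distal was highest on chromosome 10, at 60 of 292 (20.5%, Wilson interval 16.3 to 25.6%), and lowest on chromosome 20, at 5 of 109 (4.59%, 1.98 to 10.3%). Chromosome 10 kept 51 members when repeated DNA was left out. Members also lay in groups. The densest 100-kb stretches held 8 members each, on chromosome 2 (chr2:92269001-92326259) and chromosome 11 (chr11:51568728-51593489), and 8 and 7 of these were in repeated DNA. The next held 7 members and none in repeated DNA, at chr2:232465341-232552684. There the nearest protein-coding genes were PTMA, which encodes the acidic nuclear protein prothymosin alpha, and TEX44. Its DMSO heights ran from 1.57 to 3.43 RPM and its MAK683 heights from 1.59 to 2.24 RPM, with a median log2 ratio of -0.51.

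Among the 710 members outside repeated DNA, 583 protein-coding genes were nearest to at least 1, and 499 of them to exactly 1. The genes nearest to 5 members each were MMADHC, RBPJ, the DNA-binding factor of Notch signalling, and SPRY1, an antagonist of receptor tyrosine kinase signalling. The 5 regions assigned to RBPJ lay in its own introns and had 1.93 to 2.77 RPM in DMSO and 1.53 to 2.30 in MAK683. Those assigned to SPRY1 had 2.47 to 3.49 and 1.53 to 2.30 RPM, with a median log2 ratio of -0.60. All 5 were lower in MAK683, beside 89.0% of members outside repeated DNA and 76.2% of all shared regions. Nothing particular to SPRY1 is read from this. Nearness was the sole criterion, and no link between a region and a gene was measured.

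Heights were lower in the MAK683 library at most members. The median log2 ratio was -0.33 (95% order-statistic interval -0.36 to -0.32), and over all 56828 regions that both libraries shared it was also -0.33. Lower were 700 of 800 members, or 87.5%, beside 76.2% of all shared regions. At least 2-fold lower were 4 members, beside 5.56% of all such regions, and at least 2-fold higher were 0, beside 0.88%. The counting interval of the log2 ratio lay below 0 in 123 members and above 0 in 0, beside 8.32% and 0.63% of all such regions. The rule itself shaped these counts, because a region near 1.5 RPM in DMSO could stay a member only if it did not fall, and nothing is read from the comparison with the background. Among distal regions with a peak in both libraries, 1982 reached 1.5 RPM in DMSO but not in MAK683, and 156 the reverse. When 1.5 RPM was asked of DMSO alone, an alternative added after the data were seen, 2782 regions had a median log2 ratio of -0.60, and when it was asked of MAK683 alone, 956 regions had -0.27.

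The spread of ratios between members was smaller than counting error alone would give, in a set whose range of ratios the height minimum cuts. The SD of the log2 ratios was 0.287, and the median standard error that counting alone gave to a member was 0.342. The SD was below this error in other sets too, so this was not particular to the members. The values were 0.262 and 0.333 in tall TSS-proximal regions, 0.479 and 0.597 in lower distal regions and 0.471 and 0.564 in all shared regions. The median log2 ratio was -0.19 (-0.26 to -0.12) in repeated DNA, -0.32 (-0.37 to -0.29) near another start and -0.39 (-0.43 to -0.35) away from starts. It was -0.42 (-0.43 to -0.42) in the 5526 tall TSS-proximal regions and -0.29 in lower distal regions. Without the members in repeated DNA, the median was -0.36 (-0.39 to -0.33) and 632 of 710 were lower.

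**Figure D2:**
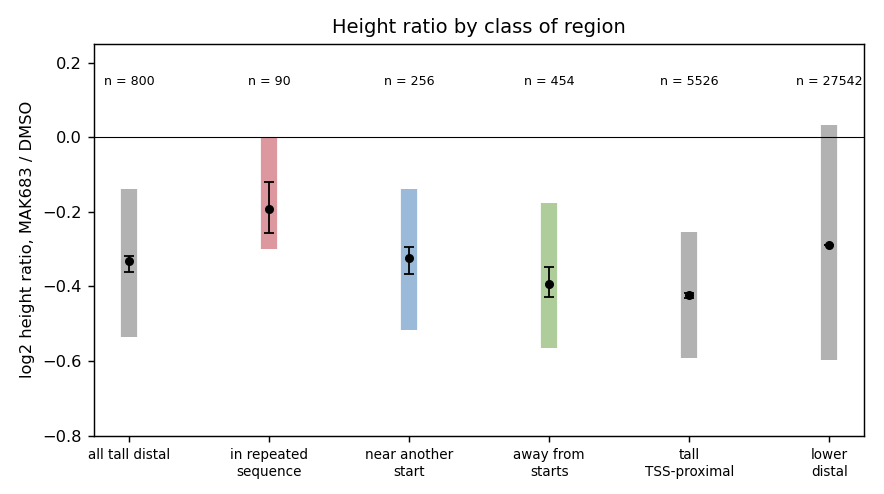
Log2 ratio of MAK683 to DMSO height for all tall distal regions, their 3 classes and both comparison sets; points are medians, error bars their 95% order-statistic intervals and bars the middle of the distribution from the first to the third quartile. Every median lies below 0, from -0.19 in repeated sequence to -0.42 in tall TSS-proximal regions.

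The lowest ratio was at chr1:210051850-210060713, between genes and 13555 bp from a start of SYT14, a member of the synaptotagmin family. It had 4.52 RPM in DMSO (75 tags) and 2.14 RPM in MAK683 (39 tags), a log2 ratio of -1.08 with a counting interval of -1.64 to -0.52. The 4 next were chr6:80519315-80524492 (3.25 and 1.59 RPM), chr15:99395240-99398276 in an intron of IGF1R, the receptor of insulin-like growth factor 1 (3.31 and 1.64 RPM), chr6:105146791-105152009 (3.19 and 1.59 RPM) and chr7:43876457-43879377 (3.37 and 1.70 RPM). All 5 were away from every transcript start, as were 454 of the 800 members, so nothing is read from this count. The 5 highest ratios were smaller in size, from 0.41 to 0.54, and each counting interval included 0. The highest, chr13:95619661-95621341, had 1.51 RPM in DMSO (25 tags) and 2.19 RPM in MAK683 (40 tags). The 4 others were chr6:160940222-160942248 in LPAL2 (1.57 and 2.24 RPM), chr6:53516188-53517747 in a coding exon of KLHL31 (1.63 and 2.19), chr2:134875883-134879520 at a start of MGAT5 (1.51 and 2.03) and chr11:129564437-129566772 (1.69 and 2.24). They stood close to the height minimum in DMSO.

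Summits of the libraries lay close together. The median distance between the tallest DMSO and the tallest MAK683 summit of a member was 41.5 bp (37 to 54 bp), and 424 of 800 (53.0%, Wilson interval 49.5 to 56.4%) were at most 50 bp apart. Tall TSS-proximal regions had a median of 42 bp, and lower distal regions 109 bp. Lower distal regions also had lower heights, and the part of height in this distance was not tested. A member held 1 peak of each library in 490 cases. MAK683 had more peaks than DMSO inside 216 members and fewer inside 65. The same direction held in tall TSS-proximal regions, with 1196 and 290 of 5526, and in all shared regions, with 7612 and 3642 of 56828. Nothing particular to the members is read from these counts.

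Sequence letters of 19 motifs were searched on both strands within 100 bp of the DMSO summit. The CTCF letters, CCA, AG and GGC with any 2 bases between neighbours, occurred in 67 of 800 members (8.38%, Wilson interval 6.65 to 10.5%), in 3.51% of tall TSS-proximal and 9.80% of lower distal windows, and in 0.75% of windows 2 kb from the same summits toward lower coordinates and 0.375% toward higher ones. The SP/KLF letters GGGGCGG, bound by factors of GC-rich promoters, occurred in 132 members (16.5%, 14.1 to 19.2%), against 42.6% of tall TSS-proximal, 4.0% of lower distal windows and 2.25% and 2.00% of the flanking windows. Within the members the SP/KLF share was 30.1% near another start and 10.4% away from starts. TFAP2 letters, GCC and GGC with any 3 bases between, were in 17.0% (14.6 to 19.8%), against 29 of 800 flanking windows toward lower and 46 of 800 toward higher coordinates. They were also in 25.4% of tall TSS-proximal, 9.75% of lower distal and 14.3% of all shared windows. ETS letters CCGGAAG were in 2.88% of members and 13.5% of tall TSS-proximal windows. These motifs are rich in G and C, as were the summit windows, and the part of base composition was not tested.

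The AP-1 letters TGANTCA, bound by FOS and JUN, occurred in 63 members (7.88%, 6.20 to 9.95%), against 6.50% of their flanking windows on either side, so the interval included the flanking share. The AP-1 share was 9.91% (7.49 to 13.0%) in members away from starts, 5.47% (3.29 to 8.97%) near another start and 4.44% (1.74 to 10.9%) in repeated DNA. Around the MAK683 summits of all members it was 9.25%. The TEAD letters GGAATG, of the partners of YAP and TAZ, were in 15.5% (13.2 to 18.2%) against 13.1% (11.0 to 15.6%) of flanking windows toward lower coordinates and 11.4% (9.36 to 13.8%) toward higher ones. GATA letters AGATAA were rarer at summits, 3.88% (2.74 to 5.45%), than in flanking windows, 10.6% (8.67 to 13.0%) toward lower and 10.1% (8.22 to 12.4%) toward higher coordinates. Their share was 1.79% in tall TSS-proximal and 6.55% in lower distal windows. These letters are rich in A and T, and the part of base composition was not tested. No letters of any of the 19 motifs were found in 152 members. A match is a run of letters and not a bound site.

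**Figure D3:**
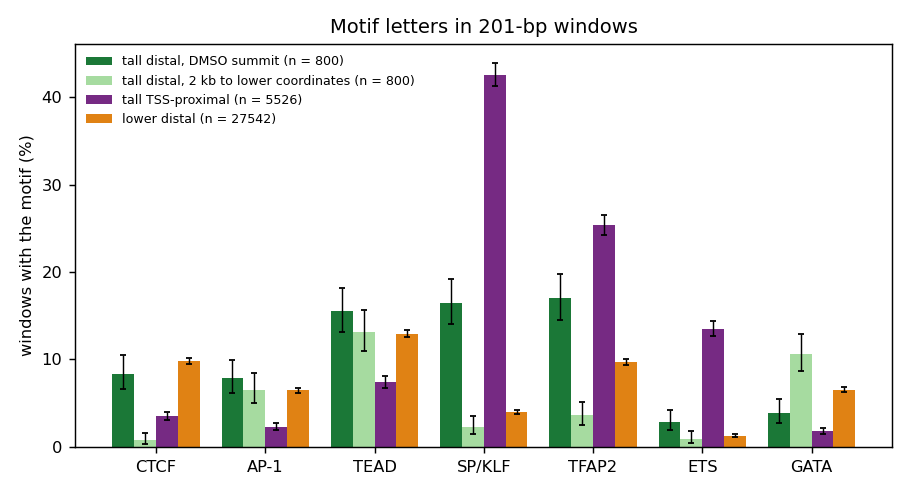
Percentage of windows of 100 bp to each side that hold the letters of 7 motifs, for summits of the 800 tall distal regions, windows 2 kb from the same summits toward lower coordinates, tall TSS-proximal summits and lower distal summits; error bars are 95% Wilson intervals. CTCF and SP/KLF letters were far more frequent at the member summits than 2 kb away, whereas the AP-1 bars stand at 7.88% and 6.50%.

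CTCF letters sat at the summit. Among the 710 members outside repeated DNA, 105 held a CTCF motif within 500 bp of the DMSO summit, and in 61 of them its centre was at most 50 bp away. For AP-1 the corresponding numbers were 198 and 37, for TEAD 365 and 58, and for SP/KLF 230 and 86. Around the MAK683 summits, the nearest CTCF motif was within 50 bp in 53 of the 106 members that held one within 500 bp. The corresponding numbers of members were 50 of 198 for AP-1, 77 of 369 for TEAD and 75 of 234 for SP/KLF. The CTCF peak was thus narrow in both libraries.

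**Figure D4:**
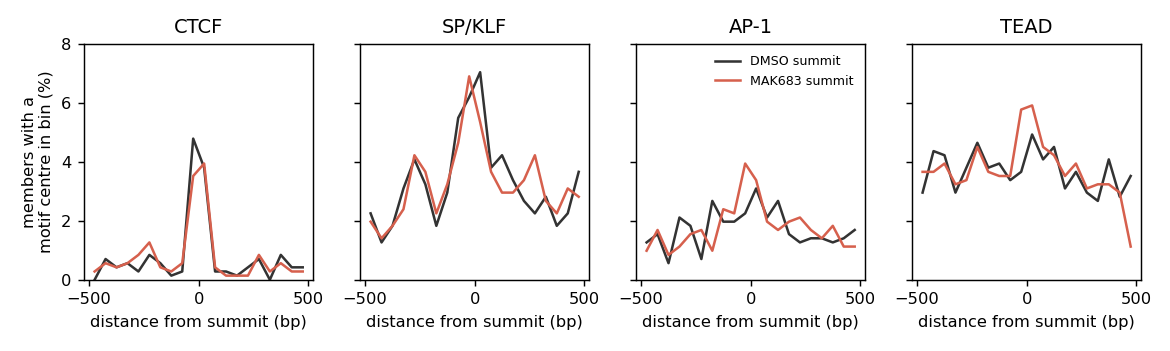
Percentage of the 710 members outside repeated sequence with a motif centre in each 50-bp bin, by distance from the summit of the DMSO library (dark) and the MAK683 library (red), for CTCF, SP/KLF, AP-1 and TEAD letters. CTCF rises to 4.79% in the bin before the DMSO summit and is at most 1.27% beyond 50 bp from either summit. AP-1 stands at 3.94% and 3.38% beside the MAK683 summit (at most 2.39% elsewhere) and at 2.25% and 3.10% beside the DMSO summit (at most 2.68% elsewhere). TEAD stands at 5.77% and 5.92% (at most 4.51% elsewhere) and at 3.66% and 4.93% (at most 4.65% elsewhere).

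Members with CTCF letters, outside repeated DNA, had a median of 2.05 RPM in DMSO and 1.70 in MAK683, with a median log2 ratio of -0.22 (-0.28 to -0.09, n = 65). The 59 with AP-1 letters had 2.41 and 1.86 RPM and -0.41 (-0.48 to -0.23). Those with CTCF letters thus lay closer to the height minimum in DMSO. Over all members the CTCF median log2 ratio minus the AP-1 median was 0.15. This difference depended on the rule: among 2782 distal regions chosen by 1.5 RPM in DMSO alone it was -0.042, of the opposite sign.

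A group of 9 members held an A box followed by a B box, GGTTCGA with any 2 bases and CC, on the same strand, as in the pair of windows printed above. Genes of tRNAs are transcribed by RNA polymerase III from such internal promoters. The search was added after a printed sequence had been seen. The share was 1.13% (0.593 to 2.12%), against 0.0762% of lower distal regions, 0.416% of tall TSS-proximal regions and 0 of 800 windows 2 kb to either side. The annotation used for the distance rule held 0 nuclear tRNA genes, so the rule could not exclude them. All 9 were lower in MAK683, with log2 ratios from -0.77 to -0.32, beside 89.0% of members outside repeated DNA and 76.2% of all shared regions, so nothing particular to these 9 is read from the count. The tallest, chr1:249166819-249169512, had 4.10 RPM in DMSO (68 tags) and 3.28 in MAK683 (60 tags). The others had 2.47 to 3.68 RPM in DMSO and 1.64 to 2.24 RPM in MAK683, and the lowest ratio was at chr16:57333175-57335419, near PLLP (3.55 and 2.08 RPM). Their windows held 70.2 to 97.7% of 31-base words found once in the genome, so a part of the words had copies elsewhere.

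Genes of 7 lists were compared with the positions of members outside repeated DNA. Of 19229 protein-coding genes on chromosomes 1 to 22, 7.16% had a member within 100 kb of the TSS. Of 30 genes compiled for this comparison around derepression and PRC2 targets, most but not all of them named in the study's text, 1 did: WNT6, a secreted Wnt ligand, with a region 35.4 kb away (1.87 RPM in DMSO and 1.59 in MAK683). That region lay in an intron of WNT10A, its nearest protein-coding gene, and was of the class near another transcript start. The list is a selection, and part of its genes were picked by the study on this cell line, so it is not independent evidence. In the oncofetal and growth list, 4 of 12 genes had a member, namely MYC, CCND2, HMGA2 and IGF2BP2. The regions of CCND2 and IGF2BP2 were nearest to other protein-coding genes, TIGAR and TRA2B. The region near MYC lay in an intron of PVT1, 71.5 kb away, with 2.77 and 2.30 RPM. That near HMGA2, a chromatin architectural factor, had 2.23 and 1.64 RPM.

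In the AP-1 and YAP/TEAD list, 2 of 20 genes had members. AMOTL2, a Hippo pathway scaffold, had 3 regions within 100 kb (2.23 to 3.07 RPM in DMSO and 1.53 to 2.24 in MAK683). Of these, chr3:134180068-134186785 was nearest to another protein-coding gene, ANAPC13. CCN1, a matrix protein induced by YAP, had 2, in an intron of DDAH1 (3.13 and 2.89 RPM in DMSO, 2.08 and 1.86 in MAK683). Both were of the class near another transcript start, and chr1:85985823-85987983 was nearest to DDAH1. The mesenchyme and matrix list had 2 of 20, SPARC and COL6A3, whose regions were nearest to ATOX1 and MLPH. In the kidney development list 1 of 15 had a member, PAX8, and in the neural crest list 1 of 16, ETS1. The PAX8 region lay in an intron of PSD4, its nearest protein-coding gene. For the 9 chromatin genes the count was 0. The intervals of all 7 shares were wide, from 0.591 to 16.7% for the list of PRC2 targets and from 13.8 to 60.9% for the oncofetal list, and nothing particular to a list is read from them.

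The values around the limits of the rule were as follows. The height minimum of 1.5 RPM fell between 24 and 25 tags in DMSO and between 27 and 28 tags in MAK683. At the minimum stood 86 members with 28 MAK683 tags (1.53 RPM) and 16 with 25 DMSO tags (1.51 RPM), the 3 closest with both being chr8:16870036-16872400, chr17:27139042-27140066 and chr10:45358549-45361517. Just below were 109 distal regions with 27 MAK683 tags (1.48 RPM) and enough height in DMSO, among them chr11:58291242-58292384 (3.07 RPM in DMSO), chr1:41173829-41175725 (2.89) and chr17:41392048-41394446 (2.83). A gap of 1 tag thus separated members from other regions. For distance, the closest members were 5004, 5006 and 5019 bp from a TSS, and the closest tall regions left out were 4977, 4973 and 4959 bp away.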

How the data were processed

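The authors aligned ATAC-seq reads to hg19 with Bowtie2 and called narrow peaks on each library alone. Per the file headers this was MACS 2.1.1.20160309, while the submitters' processing notes list versions 2.1.0 and 2.2.7.1. Reads were sequenced in pairs but MACS ran with its paired-end mode off and used a shift of -100 bp and an extension of 200 bp, 1 tag was kept per position, no local background was used and the q-value cutoff was 0.05. The deposited pileup is a signal in whole tags, the deposited fold enrichment is a ratio over the genome-wide background, and of the deposited −log10 p-values and q-values the q-values alone served, as a stricter peak cutoff (−log10 q of at least 10) in an alternative. Whether reads with several matches were removed is not given in the sources used here.

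Tags after filtering numbered 16598348 in DMSO and 18265284 in MAK683, so 1 tag was 0.0602 and 0.0547 RPM. TSSs came from GENCODE 44 lifted to GRCh37, 1 per gene, that of the canonical transcript or else of the longest, those tagged basic first. Copies of 31-base words were counted over the GRCh37 sequence. Shares have Wilson intervals, heights exact binomial intervals, and log2 ratios normal intervals (1.96 standard errors) from Poisson counting. All are 95% intervals. Those of heights and single log2 ratios cover counting error only, and PCR copies were not told apart by molecular identifiers. The intervals of shares and of medians are taken over regions, all from the same pair of libraries. They treat regions as separate draws and do not measure variation between libraries. Regions named were the 10 tallest, the 5 highest and 5 lowest ratios, those nearest the limits and the densest groups. The tallest of each class, the genes nearest to most members and the A and B boxes were chosen after values were seen. The members, motifs and lists were chosen with earlier results of these data known. The code was tested on simulated data. Python 3.11.15, numpy 2.4.6, pandas 2.3.3, scipy 1.17.1, pysam 0.24.0 and blastn 2.17.0 were used. Beside those spelled out above, letters searched on both strands were TGTGGT (RUNX), ACAATG or ACAAAG (SOX), GTAAACA (FOX), CAGCTG and CACGTG (E-boxes), TTGGCA (NFI), TTGCNNAA (CEBP), CCAATCA (NFY), TGACGTCA (CREB), ATGCAAAT (POU), GCATGCGC (NRF1) and GTTAAT (HNF1). Other heights, distances, TSS sets, scalings and windows were tried as alternatives.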

Additional observations from a re-analysis of the deposited data

How the results depend on the processing

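Of 88 alternative values, 58 stayed within 1.5 times the count or within the interval, 29 moved and 1 turned its direction. At 1 RPM in each library there were 3251 tall distal regions, of which 82.0% were lower in MAK683, 2.21% lower by at least 2-fold, 49.6% in introns and 13.7% with CTCF letters. At 2 RPM there were 208, with a median log2 ratio of -0.27, 33.7% in introns and 6.25% with CTCF letters. Distance from every annotated transcript start left 533 regions (34.9% in introns), and from protein-coding TSSs alone 1482. Heights in tags gave a median log2 ratio of -0.19, with 72.6% lower and 0% lower by at least 2-fold, and the deposited fold enrichment gave -0.26, 82.5% and 0.125%. Thus the share lower depended on the scaling. AP-1 letters were in 4.88% of windows of 50 bp to each side, and in the whole region in 50.6%, against 21.2% for CTCF. With introns of protein-coding genes alone the intron share was 35.1%. Without repeated DNA the median log2 ratio was -0.36. With 1.5 RPM asked of DMSO alone there were 2782 regions, with -0.60, 96.4% lower and 14.2% lower by at least 2-fold, and the CTCF minus AP-1 difference became -0.042. With MAK683 alone, the median was -0.27 and 73.2% were lower. The cause of these shifts was not tested beyond the change of rule itself. No paired analysis was possible because each group had 1 library.

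Depth limits these values: 1.5 RPM is 25 tags in DMSO and 28 in MAK683, and the median counting standard error of a log2 ratio was 0.342, so most single differences were not detectable at this depth. Treatment cannot be told apart from library, since each group had 1.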

Other observations

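The same rule was applied to chromosome X, which the selection left out. It gave 21 distal regions of 55 at or above 1.5 RPM in each library. Their DMSO heights ran from 1.75 to 5.42 RPM and their MAK683 heights from 1.53 to 3.89 RPM. The median log2 ratio was -0.34, and 19 of the 21 were lower in MAK683, beside 87.5% of the 800 members on the other chromosomes and 76.2% of all regions shared by both libraries.

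Over the 710 members outside repeated DNA, Spearman's rho between the log2 ratio and the GC content of the summit window was 0.14, and over the 90 members in repeated DNA it was -0.37. The median log2 ratio was -0.49 (-0.53 to -0.37) in the 64 members under 45% GC, -0.41 (-0.48 to -0.35) in the 222 from 45 to 55%, -0.30 (-0.39 to -0.23) in the 217 from 55 to 65% and -0.34 (-0.38 to -0.31) in the 207 at 65% or more, so the order was not steady. These are descriptions of regions that share both libraries and the height minimum.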
